A study of Mus musculus with 6 samples.

Results

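The genes described here are 37 genes of DNA replication and of the step from G1 into S phase, measured in mouse bone marrow macrophages (BMMs) with Affymetrix Mouse Genome 430 2.0 arrays. They were chosen by name, and each was read from the probe set that the platform annotation assigns to that 1 symbol and that had the highest mean over the 6 arrays. Of the 37, 36 had such a probe set among 18193 genes in all, and 35 passed the filter on dim probe sets, which kept probe sets brighter than their array's median on 3 or more of the 6 arrays and left 10363 genes. Chaf1a had no probe set with exactly this symbol. Orc1 fell below the filter.

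The cells came from TNFR1-/-R2-/- double knockout mice on the c57BL/6 strain, so neither group carried its own TNF receptors. In the wild-type group (3 arrays), a retrovirus supplied a chimeric receptor made of the external domain of mouse TNFR1 and the membrane and inner parts of mouse RANK. The mutant group (3 arrays) received the same receptor with inactivating mutations in the IVVY motif of the RANK part. Cells of both groups were selected with puromycin (2 ug/ml, 3 days) and then kept with M-CSF (44 ng/ml) and TNF (10 ng/ml) for 24 hours. RNA of 6 dishes was pooled for each array, and this was done in 3 separate assays, each giving an array per group. The age and sex of the mice, the promoter that drives the receptor and the share of cells that carry it are not given in the sources used here. Cells without the receptor or without TNF were not analysed here, so mutant and intact motif are compared under 1 stimulus. The question of the study was which macrophage genes depend on this RANK motif.

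As background, a cell copies its DNA by first loading the MCM helicase onto origins in G1 with the origin recognition complex, Cdc6 and Cdt1. On entry into S phase, kinases convert the loaded helicase into an active one with Cdc45 and the GINS complex, and polymerases then copy both strands behind it. Many of these genes are transcribed together at the G1/S boundary by E2F factors, which are freed when cyclin-dependent kinases phosphorylate the retinoblastoma protein. Macrophages grown from bone marrow divide in response to M-CSF, and precursors leave the cell cycle as they become osteoclasts.

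The arrays had closely alike distributions, with median intensities of 8.86 to 9.38 and 75th percentiles of 160.5 to 164. The 8 macrophage markers checked were all bright, with summed intensities of 127594 to 150058 over the 6 arrays. The 8 osteoclast markers summed to 1117, 1473 and 1878 in mutant cells and to 11985, 8525 and 26816 in wild-type cells of assays 1, 2 and 3. Most of each wild-type sum came from Acp5, Ctsk and Mmp9. Itgb3 stayed under 16 on all arrays, and Calcr and Oscar on all but wild-type array 3. Atp6v0d2 was nearly equal in assay 2, at 437 (mutant) and 447 (wild type). Assay 3 stood apart. The 10 stromal markers summed to 4589.9 (mutant) and 3386 (wild type) there and to 69.1 to 165 on the other 4 arrays, with Col1a2 at 1719 and 1109 in assay 3, while Lum and Thy1 stayed under 16 on all arrays. Xist and Eif2s3y, sex-linked genes chosen after their values were seen, also set this assay apart. Xist read 10.5 (mutant) and 8.82 (wild type) there against 3308 or more elsewhere. Eif2s3y read 1368 and 1436 there against 12.9 to 349 elsewhere. The arrays of assay 1 also differed in Eif2s3y, at 308 (mutant) and 12.9 (wild type), against 349 and 227 in assay 2. Xist read 5524 (mutant) and 9152 (wild type) in assay 1. The part of this in the differences of replication genes was not tested. Every T cell, B cell, neutrophil and erythroid marker with a probe set was under 16, as were Kit and Flt3 of the progenitor markers, while Cd34 read 57.0 and 114 in assay 1. As these are bulk samples, fewer cycling cells and less of each RNA per cell cannot be told apart.

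Replication genes were brightest on the mutant arrays of assays 1 and 2, intermediate on the wild-type arrays of those assays, and dimmest on both arrays of assay 3. Of the 35 genes tested, 29 had their highest value on mutant array 1 and 6 on mutant array 2, while 18 were lowest on mutant array 3 and 14 on wild-type array 3. Within pairs of same-numbered arrays, the median gene was 1.67-fold higher in the mutant in assay 1 and 1.56-fold in assay 2, and at 0.978 of the wild-type value in assay 3 (log2 differences of 0.74, 0.65 and -0.033). The medians over all 10363 genes were -0.0013, 0.015 and 0.00094. The osteoclast marker sums also differed between the groups, in all 3 assays, and their part in these differences was not tested. Folds and log2 differences here are on the log2(intensity + 16) scale, which understates changes of dim genes.

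**Figure D1:**
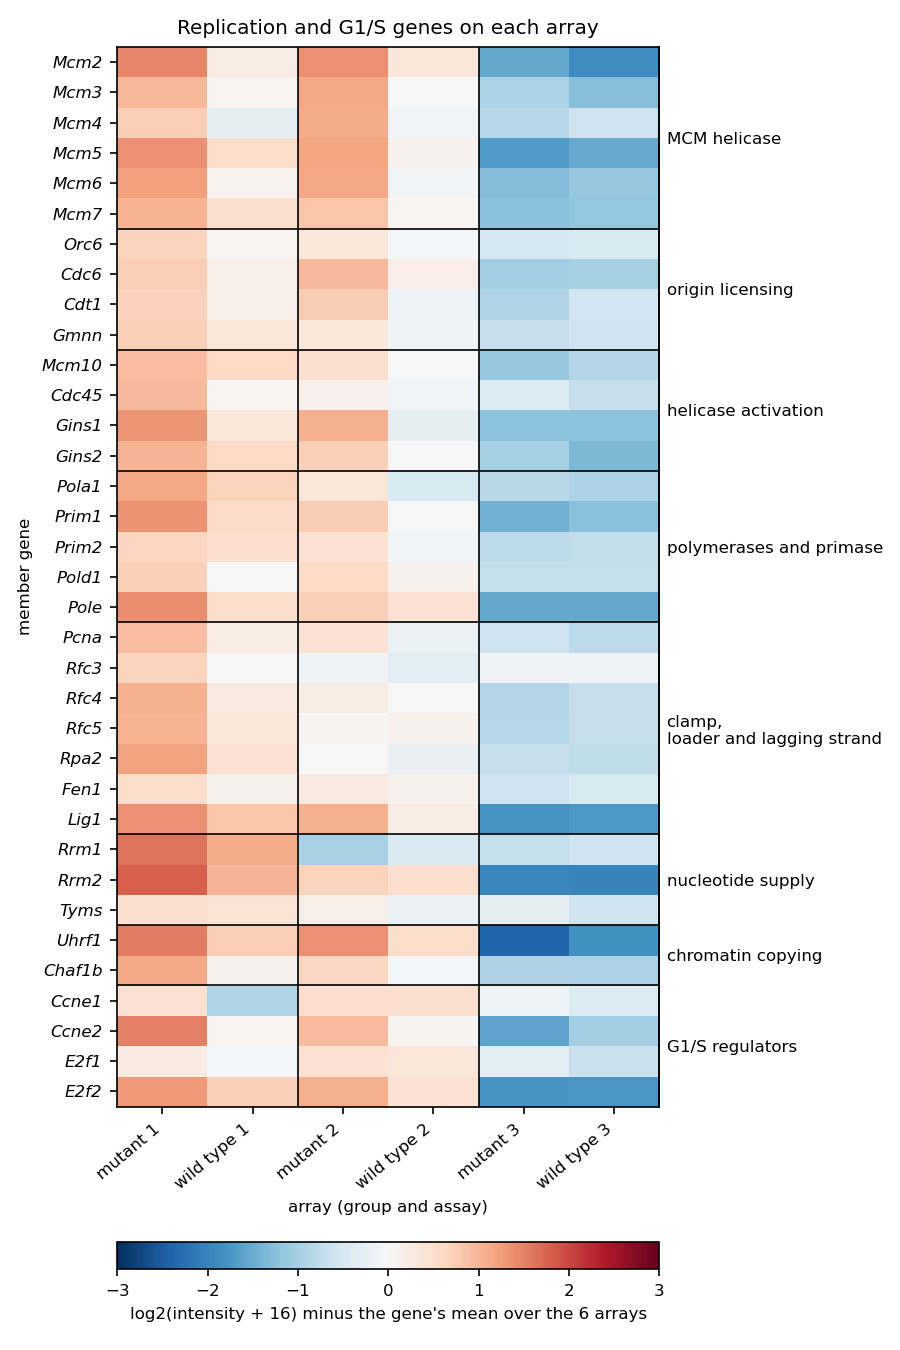
Each cell shows log2(intensity + 16) of a gene on an array minus that gene's mean over the 6 arrays, with red above and blue below the mean. Rows are the 35 genes tested, grouped by role, and columns are the 6 arrays ordered by assay. The mutant arrays of assays 1 and 2 hold the highest value of all 35 genes, and the arrays of assay 3 are lowest for 32.

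The MCM helicase, the ring of Mcm2 to Mcm7 that unwinds DNA ahead of the fork, showed the pattern in all 6 subunits. Intensities are given in the order of assays 1, 2 and 3 throughout. Mcm2 read 541, 499 and 52.8 in mutant cells and 218, 239 and 39.6 in wild-type cells. The mutant was 2.38-fold higher in assay 1, 2.02-fold in assay 2 and 1.24-fold in assay 3, where both values were dim. Mcm6 read 4039, 3861 and 690.2 in mutant cells and 1857, 1619 and 771 in wild-type cells. Its mutant values of assays 1 and 2 exceeded every wild-type value, while in assay 3 the order was turned, so the groups as wholes overlapped. Mcm5 read 3153, 2776 and 362 in mutant cells and 1733, 1314 and 416 in wild-type cells, and Mcm4 read 1025, 1325 and 324 in mutant cells and 492, 572 and 386 in wild-type cells. Both were higher in the mutant of assays 1 and 2 and slightly lower in that of assay 3. Mcm3 read 981, 1089 and 240.5 in mutant cells and 503, 481 and 188 in wild-type cells, higher in every pair on this probe set. In assay 3, 2 of its 3 other kept probe sets were lower in the mutant. Mcm7, whose mutant stood 1.48-fold and 1.71-fold higher in assays 1 and 2, was at 0.93 of the wild type in assay 3. Over the 6 subunits the median ratio of mutant to wild type was 1.98 in assay 1, 2.16 in assay 2 and 0.914 in assay 3.

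**Figure D2:**
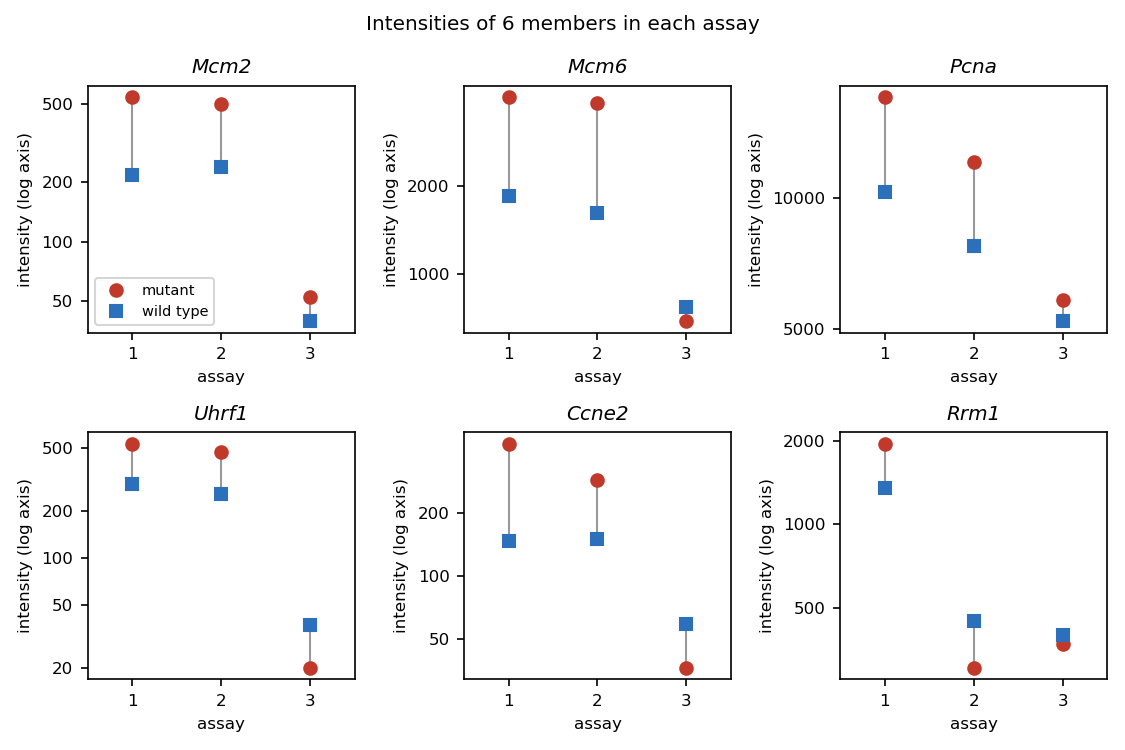
Points are intensities of 6 genes (log axis, each panel with its own range) in the 3 assays, with mutant arrays as red circles and wild-type arrays as blue squares, 1 array per point and a line joining the arrays of an assay. For Mcm2, Mcm6, Pcna, Uhrf1 and Ccne2 the mutant lies above the wild type in assays 1 and 2 and both are lowest in assay 3, while the Rrm1 probe set shown, unlike its other one, is high in assay 1 alone.

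The promoters of the 37 genes were searched, where given, for the E2F-like strings TTTCCCGC, TTTGGCGC, TTTCGCGC and TTTGCCGC on both strands. Whether these strings bear on the course of the genes over the arrays was not tested. RefSeq promoter windows (GRCm38.p6, 250 bases before to 50 after the gene start) were given for 30 of the 37 genes, 36 windows in all. At least 1 string occurred in 13 of the 30 (43.3%), against 2.6% of all 27025 genes with a window, or 2.26% of all 32851 windows. The same share was 30.8% for 39 other replication genes, 31.6% for 19 other G1/S regulators and 6.25% for 16 mitotic genes. The CCAAT box, searched in the same way, lay in 63.3% of the genes' promoters, in 87.5% of the mitotic ones and in 41.1% of all. A match is a description of letters and not a measured binding site.

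A window each of the 5 MCM genes that have any is printed because the MCM subunits had the highest median ratio of any role in assay 2. A window of E2f2 is printed because it encodes an E2F factor and had a match. E2f1 also encodes an E2F factor, but it had no match in its promoter and is not shown. Letters run 5′ to 3′ on the gene's strand, and capitals mark E2F-like strings on either strand. The windows lie at chr6:88898731-88899030, minus strand (Mcm2), chr1:20820263-20820562, minus strand (Mcm3), chr8:75109259-75109558, plus strand (Mcm5), chr1:128359656-128359955, minus strand (Mcm6), chr5:138171834-138172133, minus strand (Mcm7) and chr4:136172024-136172323, plus strand (E2f2).
Mcm2: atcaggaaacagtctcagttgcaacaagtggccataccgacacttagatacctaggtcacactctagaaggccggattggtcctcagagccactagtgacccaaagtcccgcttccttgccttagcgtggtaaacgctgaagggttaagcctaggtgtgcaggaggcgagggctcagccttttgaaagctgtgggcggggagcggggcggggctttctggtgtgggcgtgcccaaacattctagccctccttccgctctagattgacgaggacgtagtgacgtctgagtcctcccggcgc
Mcm3: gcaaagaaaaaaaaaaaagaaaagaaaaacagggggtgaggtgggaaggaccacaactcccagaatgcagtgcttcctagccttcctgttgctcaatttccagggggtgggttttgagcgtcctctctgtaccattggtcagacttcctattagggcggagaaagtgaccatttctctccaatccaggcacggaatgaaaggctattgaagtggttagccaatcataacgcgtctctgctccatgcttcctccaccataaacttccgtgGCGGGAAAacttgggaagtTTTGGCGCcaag
Mcm5: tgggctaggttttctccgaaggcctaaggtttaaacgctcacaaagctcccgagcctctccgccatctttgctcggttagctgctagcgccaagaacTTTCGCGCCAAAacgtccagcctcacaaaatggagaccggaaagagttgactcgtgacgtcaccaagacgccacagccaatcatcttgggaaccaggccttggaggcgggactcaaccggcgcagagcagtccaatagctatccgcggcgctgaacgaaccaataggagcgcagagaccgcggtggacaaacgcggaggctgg
Mcm6: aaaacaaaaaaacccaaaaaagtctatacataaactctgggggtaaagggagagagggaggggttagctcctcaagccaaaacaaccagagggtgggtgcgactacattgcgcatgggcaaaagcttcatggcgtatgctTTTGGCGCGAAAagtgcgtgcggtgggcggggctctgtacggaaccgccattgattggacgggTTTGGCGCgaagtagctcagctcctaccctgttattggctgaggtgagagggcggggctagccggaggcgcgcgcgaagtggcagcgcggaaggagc
Mcm7: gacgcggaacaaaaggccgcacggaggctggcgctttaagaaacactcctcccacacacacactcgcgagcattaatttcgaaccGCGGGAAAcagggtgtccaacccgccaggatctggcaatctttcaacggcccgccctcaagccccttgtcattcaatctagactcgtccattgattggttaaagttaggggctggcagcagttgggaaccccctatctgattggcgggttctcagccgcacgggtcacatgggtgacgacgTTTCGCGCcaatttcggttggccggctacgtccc
E2f2: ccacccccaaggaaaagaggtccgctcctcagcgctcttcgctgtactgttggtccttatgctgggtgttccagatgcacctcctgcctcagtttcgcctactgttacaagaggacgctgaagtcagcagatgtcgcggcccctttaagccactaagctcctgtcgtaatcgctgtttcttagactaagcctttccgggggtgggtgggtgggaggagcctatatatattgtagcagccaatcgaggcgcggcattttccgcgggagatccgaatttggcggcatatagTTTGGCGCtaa
Where a gene had several windows, the one with the most E2F-like matches was printed. Mcm7 and E2f2 each also had a window without a match, which is not shown. In the printed windows Mcm6 held 3 matches, Mcm3, Mcm5 and Mcm7 had 2 each, E2f2 had 1, and Mcm2 had 0. In Mcm5 and in Mcm6, a match on each strand overlapped to give the runs TTTCGCGCCAAA and TTTGGCGCGAAA. Among tested genes with a window, the 12 with a match had median log2 differences between mutant and wild type of 0.62, 0.83 and -0.05 in assays 1, 2 and 3, and the 16 without had 0.74, 0.22 and 0.03. This split was made after the values were seen and was not tested.

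**Figure D3:**
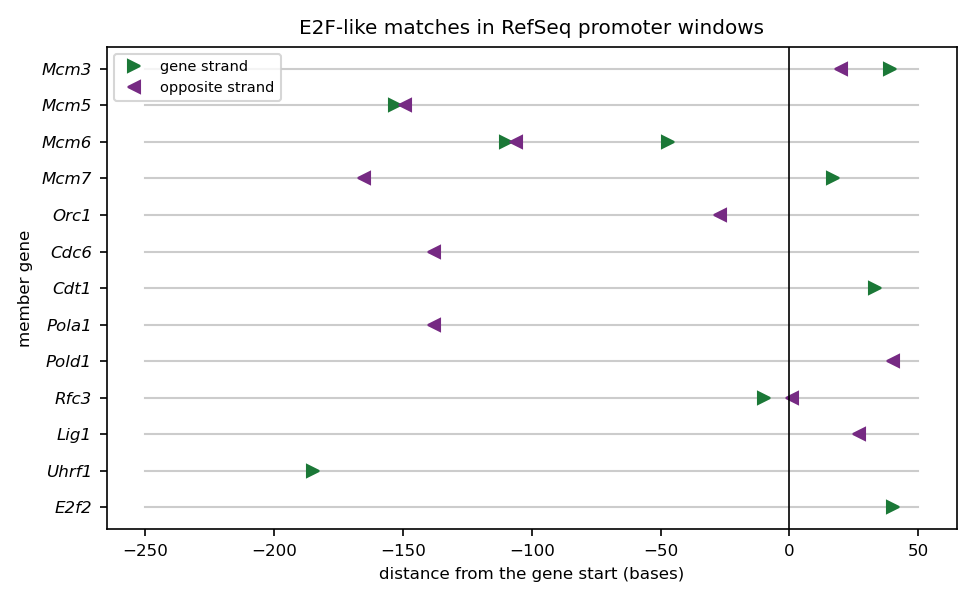
Triangles mark where E2F-like strings begin in RefSeq promoter windows, by distance from the gene start in bases, for the 13 genes with a match. Green triangles point right for strings on the gene's strand and purple ones left for the opposite strand, and grey lines show the window from 250 bases before to 50 after the start. There are 19 matches in all, 3 of them in Mcm6.

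The 4 origin licensing genes tested had median ratios of mutant to wild type of 1.45, 1.52 and 0.954 in assays 1, 2 and 3. Cdc6, which loads the helicase, read 116, 139 and 22.6 in mutant cells and 73.9, 74.9 and 23.9 in wild-type cells. Cdt1, its partner in loading, read 1906, 2028 and 625 in mutant cells and 1325, 1058 and 793 in wild-type cells. The mutant had the higher value of both in assays 1 and 2 and the lower in assay 3. Gmnn encodes geminin, the inhibitor of Cdt1 that prevents relicensing, and read 1769.7, 1356 and 662 in mutant cells and 1403, 1004 and 704 in wild-type cells. It had the same order as the gene it restrains, at 1.26-fold and 1.34-fold in assays 1 and 2. Orc6, an origin recognition subunit, was 1.57-fold and 1.31-fold higher in these assays and at 0.978 in assay 3. Orc1, the subunit below the filter, read at most 7.98 on any array on its brighter probe set, close to the array medians, and no ratio is given for it.

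Among genes that activate the helicase, Gins1 had the highest ratio of all 35 genes in assay 2. This GINS subunit read 414, 340.4 and 56.8 in mutant cells and 198, 126 and 56.5 in wild-type cells. The mutant was 2.01-fold and 2.51-fold higher in assays 1 and 2, and in assay 3 the arrays were nearly equal. The other kept Gins1 probe set was dim, at 10.7 to 21.9, with 1.30-fold and 1.09-fold in assays 1 and 2. Gins2, another GINS subunit, read 238, 192 and 47.3 in mutant cells and 175, 112 and 33.3 in wild-type cells, and was higher in the mutant of every pair. Its other kept probe set was lower in the mutant of assay 3, at 37 against 41.9. Cdc45, which joins the helicase and GINS, read 75.9, 35.4 and 18.8 in mutant cells and 32.5, 27.9 and 12.9 in wild-type cells. It was dim throughout, and in assay 3 close to the array medians. Mcm10, an activation factor outside the MCM ring, was 1.26-fold and 1.41-fold higher in assays 1 and 2, with both arrays of assay 3 near the array medians at 12.3 and 17.7.

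Of the polymerase genes, Pole, the catalytic subunit of the leading-strand polymerase, read 198, 119 and 12.1 in mutant cells and 102, 94.9 and 12.1 in wild-type cells. In assay 3 both of its values were near background and alike. Prim1, the catalytic subunit of primase, read 565, 370.3 and 67.8 in mutant cells and 323, 209 and 78.7 in wild-type cells, a difference of 1.71-fold in each of assays 1 and 2. Pola1, the catalytic subunit of the polymerase that works with primase, read 352, 196 and 75.8 in mutant cells and 245, 104 and 70.7 in wild-type cells. Pold1, the lagging-strand polymerase subunit, was 1.68-fold and 1.40-fold higher in the mutant of assays 1 and 2, and Prim2, the large primase subunit, 1.12-fold and 1.42-fold. All 5 genes were higher in the mutant in both of these assays.

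The sliding clamp and its loader had unlike ratios in assay 2, a difference that was not tested. Pcna, the clamp that holds polymerases on DNA, read 17106, 12137 and 5818 in mutant cells and 10354, 7753 and 5206 in wild-type cells. Its mutant values were 1.65-fold, 1.56-fold and 1.12-fold those of the wild type. Rfc5, a clamp loader subunit, read 583, 290.2 and 143 in mutant cells and 343, 298 and 163 in wild-type cells, higher in the mutant of assay 1 alone. Rfc4 (1.71-fold, then 1.16-fold) and Rfc3 (1.6-fold, then 1.16-fold) likewise had larger ratios in assay 1 than in assay 2, as had Rpa2 (1.67-fold, then 1.15-fold), a subunit of the single-strand binding protein. Other kept probe sets disagreed in part, with 1.18-fold and then 1.27-fold for Rfc3 and 2.04-fold and then 1.77-fold for Rpa2. Lig1, the ligase that joins Okazaki fragments, read 744, 593 and 70.1 in mutant cells and 501, 322 and 72.7 in wild-type cells. Its ratio was 1.47 in assay 1 and 1.80 in assay 2, and Fen1, the flap nuclease of the same step, had 1.32 and 1.10.

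In the nucleotide supply genes, 2 of 3 were higher in the mutant of assay 2. Rrm1, the large subunit of ribonucleotide reductase, read 1949, 306 and 371 in mutant cells and 1352, 451 and 403 in wild-type cells. It was lower in the mutant of assay 2, at 0.690 of the wild type, and was the 1 gene of the 35 whose mean log2 value was lower in the mutant. Its other kept probe set had 615 (mutant) against 581 (wild type) in assay 2, so the Rrm1 probe sets disagree there. Rrm2, the small subunit, read 2226, 1009.9 and 149.5 in mutant cells and 1293, 901 and 145 in wild-type cells. The ratio was 1.71 in assay 1 but 1.12 in assay 2, and another of its 3 kept probe sets read 102 against 195 in assay 2, the opposite order. Tyms, thymidylate synthase, was dim at 9.35 to 37.5, with ratios of 1.05 and 1.30 in assays 1 and 2. In assay 3 it read 15.8 (mutant) and 9.35 (wild type), too near background for a ratio.

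Both chromatin copying genes had higher mutant values in assays 1 and 2 on their representing probe sets. Uhrf1, which brings DNA methylation to newly made strands, read 536, 474 and 20.01 in mutant cells and 297, 256 and 37.3 in wild-type cells. The mutant was 1.76-fold and 1.80-fold higher in assays 1 and 2, while in assay 3 it was at 0.675 of a wild type that was itself low. The dim mutant value of assay 3 limits this last ratio. On the other kept Uhrf1 probe set the ratios were 1.68, 0.982 and 0.989, with 6.96 (mutant) and 7.21 (wild type) in assay 3. Chaf1b, a subunit of the factor that places histones on new DNA, read 236, 162 and 44.8 in mutant cells and 109.7, 97.1 and 44.1 in wild-type cells, with nearly equal arrays in assay 3.

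Among the G1/S regulators, Ccne2, a cyclin E that drives entry into S phase, read 429.7, 287 and 36.6 in mutant cells and 148, 151 and 59.6 in wild-type cells. The ratio of 2.72 in assay 1 was the highest of any of the 35 genes in a pair. Ccne1, the other cyclin E, read 134, 138 and 83.7 in mutant cells and 42.5, 136 and 65.5 in wild-type cells. The low wild-type value of assay 1 set it apart, and its second probe set read 55.3 there against 44.7 and 18.1 on the other wild-type arrays, a different order. E2f2, an activating E2F factor, read 414, 362 and 36.1 in mutant cells and 276, 223 and 36.4 in wild-type cells. E2f1, another activator, read 261, 295 and 169 in mutant cells and 210.1, 280.0 and 129.7 in wild-type cells, with the mutant higher in every pair. Its ratios of 1.22 and 1.05 in assays 1 and 2 were below the 1.6 and 1.73 of its other kept probe set.

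**Figure D4:**
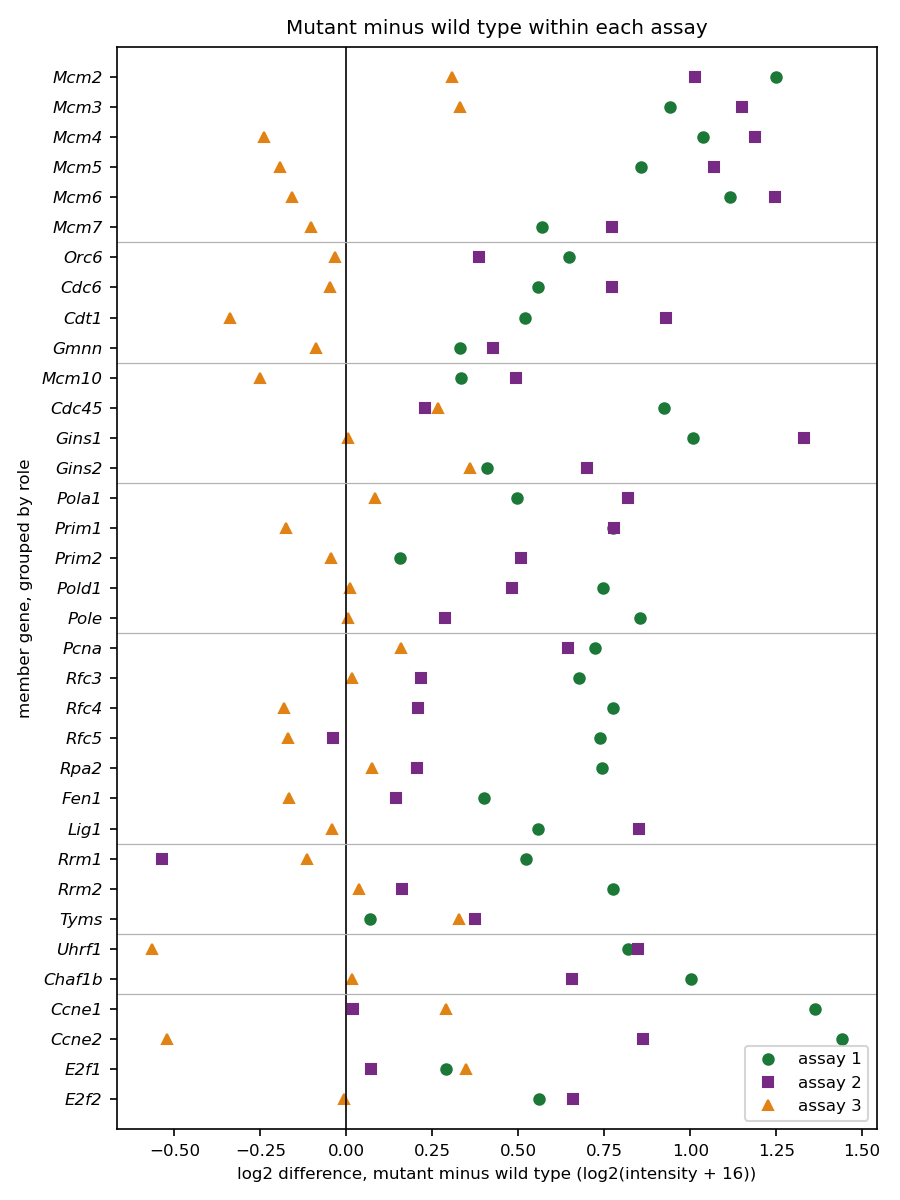
Each point is the log2 difference between the mutant and the wild-type array of an assay (log2(intensity + 16)) for 1 of the 35 genes, with assay 1 as green circles, assay 2 as purple squares and assay 3 as orange triangles, and grey lines between roles. All 35 points of assay 1 and 33 of assay 2 lie above 0, against 16 of assay 3.

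Counted by gene, all 35 were higher in the mutant in assay 1, where 49.2% of all genes were. In assay 2 the count was 33 of 35 (56.2% of all genes), with Rrm1 and Rfc5 as the exceptions, and in assay 3 it was 16 of 35 (50.4% of all genes), with 19 lower (49.6%). In assays 1 and 2 alike, 33 were higher (29.9% of all genes). In each of assays 1 and 2, 11 genes were at least 1.5-fold higher, against 0.917% of all genes. These were Mcm2, Mcm3, Mcm4, Mcm5, Mcm6, Gins1, Prim1, Pcna, Uhrf1, Chaf1b and Ccne2. In assay 3, 0 of the 35 reached 1.5-fold (0.782% of all genes). Across all 3 pairs, 16 were higher in every pair (14.5% of all genes) and 0 lower in every pair (12% of all genes). These are the same 16 genes as were higher in assay 3, where their share was near that of all genes. Their ratios in assay 3 were at most 1.28 (Gins2). Those of Gins1 (1.003), Pold1 (1.006), Rfc3 (1.01), Chaf1b (1.01) and Rrm2 (1.03) were close to 1. Of these 16, Cdc45, Pole and Tyms were near background in assay 3. Another kept probe set existed for 10 of the 16, and for 4 of these 10 every such probe set was also higher in every pair. With the 4 arrays of assays 1 and 2 alone, 22 had both mutant values above both wild-type values (14.6% of all genes), while over all 6 arrays 0 had groups that did not overlap, either way (1.36% of all genes higher and 1.95% lower). The threshold of 1.5-fold and the choice of assays 1 and 2 were made after the values were seen.

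No gene passed the test between the groups. In limma over 22497 probe sets, without the assay in the model, 0 of the 35 had an adjusted p under 0.05 (0% of all probe sets), every one had an adjusted p of 0.99998, and 0 had an unadjusted p under 0.05 (0.203% of all genes higher and 0.936% lower). The median log2 difference of the 35 was 0.41, against 0.01 for all genes, and 34 were above 0 (53.2% of all genes). Mcm2 had the largest at 0.86 ± 1.05 (SE), followed by Mcm3 at 0.81 ± 0.70 (SE) and Gins1 at 0.78 ± 0.81 (SE). With 1 array left out, these ranged from 0.15 to 1.84, from 0.37 to 1.49 and from 0.31 to 1.59, lowest without wild-type array 3 (Mcm2 and Mcm3) or mutant array 1 (Gins1) and highest without mutant array 3. This fit counts the differences between assays as error. With the replicate number as a block, limma again called 0 (smallest adjusted p 0.859), and 4 genes had an unadjusted p under 0.05, all higher (2.83% of all genes, and 3.06% lower), namely Gins2 (0.49 ± 0.10, SE), Mcm3 (0.81 ± 0.19), Mcm2 (0.86 ± 0.21) and Pcna (0.51 ± 0.14), each higher in 3 of 3 pairs. Leaving out assay 3, which stood apart, and keeping the block raised that count to 22, all higher (4.24% of all genes, and 316 of 10363 lower). The smallest adjusted p was 0.688 in limma, so 0 passed there too. This fit of 4 arrays has 1 residual degree of freedom. Assay 3 was left out after its smaller differences were seen, so the rise in the count is no added support.

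The difference between assays in how the mutant compared with the wild type was put to limma as pair 3 minus the mean of pairs 1 and 2. This was below 0 for 33 of the 35 genes (53.6% of all genes), with a median of -0.60 against -0.02 for all genes. An unadjusted p under 0.05 was found for 16, all below 0 (3.62% of all genes), but 0 passed after adjustment (smallest adjusted p 0.891), with 1 residual degree of freedom. Ccne2 had the largest such difference at -1.68 ± 0.34 (SE), then Uhrf1 at -1.40 ± 0.19 and Mcm4 at -1.35 ± 0.20. Uhrf1 was dim in assay 3, at 20.01 in the mutant, and its size rests on 1 probe set. On its other kept probe set the log2 differences were 0.74, -0.026 and -0.016 in assays 1, 2 and 3. The test was added after the values were seen.

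Replication genes, like all probe sets together, differed more between assays than between groups. Most of the 35 passed a test between assays. Of the total sum of squares of the 35 genes, 87.5% lay between assays and 7.02% between groups (81.9% and 7.69% for all probe sets). In limma's F test over the 3 assays, with the group in the model, 24 of the 35 passed at an adjusted p under 0.05 (23.4% of all genes). Against assay 1, 28 fell in assay 3 (11.3% of all genes), and against assay 2, 20 fell (15.5%), while 0 rose in either comparison (8.3% and 6.21%). Between assays 1 and 2, limma called 0 (0% of all genes), either way. The median gene was 2.94-fold brighter in assay 1 than in assay 3, and 2.35-fold brighter in assay 2 than in assay 3. Both arrays of assay 3 lay below the other 4 arrays for 32 genes (33.8% of all genes), the exceptions being Rfc3, Rrm1 and Ccne1. On the other kept probe sets, Rrm1 and Ccne1 were lowest on both arrays of assay 3 and Rfc3 was not. That of Ccne1 read 34.4 (mutant) and 18.1 (wild type) in assay 3 against 44.7 or more elsewhere.

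Rrm2 fell the most from assay 1 to assay 3, with a log2 difference of -3.39 ± 0.22 (SE), and passed against assay 2 too, at -2.57 ± 0.22 (SE) (limma, adjusted p = 0.0166 and 0.0183). Uhrf1 differed by -3.25 ± 0.42 (SE) and -3.06 ± 0.42 (SE), Lig1 by -2.84 ± 0.25 (SE) and -2.38 ± 0.25 (SE), and E2f2 by -2.76 ± 0.20 (SE) and -2.52 ± 0.20 (SE), each passing in both comparisons. Mcm2 and Mcm5 also fell from assay 1, with log2 differences of -2.55 and -2.54. Pole passed too, but its assay 3 values near background give no exact size. The dim Uhrf1 value on mutant array 3 limits the size for Uhrf1 too. On its representing probe set Rrm1 fell from assay 1 (-2.03 ± 0.28 (SE)) while assays 2 and 3 were close (0.055 ± 0.28). The other kept Rrm1 probe set did not have this course, reading 1371, 615 and 254 in mutant cells and 1079, 581 and 256 in wild-type cells. E2f1 passed with a small difference, at -0.61 ± 0.11 (SE) from assay 1. Rfc3 and Ccne1 passed in neither comparison, nor did Mcm4, Mcm6, Orc6, Cdt1 and Ccne2. Of these Mcm6 was nearest to the threshold, with limma's adjusted p = 0.0504 and 0.0524. Stromal markers and Xist set the same assay apart, and their part in these differences was not tested. With any single array of assay 1 or assay 3 left out, limma called 0 of the 35 in the F test and in both comparisons. Without mutant array 2 the counts were 11 in the F test, 22 against assay 1 and 0 against assay 2, and without wild-type array 2 they were 16, 22 and 8. Without the filter on dim probe sets all 3 counts were 0.

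The other probe sets of the same genes gave a like picture. Beside the representing ones, 27 probe sets of 22 genes passed the filter. Of these, 27 were higher in the mutant of assay 1, 25 in assay 2 and 8 in assay 3, and 27 were lower in assay 3 than in the mean of assays 1 and 2. The 2 exceptions of assay 2 were the Rrm2 probe set named above and one of Uhrf1, at 24.7 against 25.4. Of the representing probe sets, 6 end in _x_at and 2 in _s_at, which by the array's naming may also read related transcripts.

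Other genes that act in replication were mostly higher in the mutant of assays 1 and 2 as well. Of 47 listed, 45 were tested, and 39 were higher in the mutant of assay 1, 35 in assay 2 and 18 in assay 3, with median log2 differences of 0.34, 0.34 and -0.033. The difference of these medians from those of the 35 genes was not tested. No gene of this list passed between the groups in limma, and 17 of the 45 passed the F test between assays (23.4% of all genes). Nasp, a histone chaperone, had the smallest p between the groups. It was the 1 gene of the 45 without overlap, higher in the mutant, as were 1.36% of all genes. Nasp read 440.1, 428 and 398 in mutant cells and 311, 333 and 391 in wild-type cells. Rfc1, Pold4 and Pold3 were next, and Pold4, a small subunit of the lagging-strand polymerase, read lower in the mutant in assays 1 and 2, at 235 against 297 in assay 1, 259 against 319 in assay 2 and 291 against 259 in assay 3. Its wild-type and mutant values stayed within 235 to 319.

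Of 26 other G1/S regulators, all were tested, and 19, 13 and 13 were higher in the mutant of assays 1, 2 and 3. The median log2 differences were 0.28, 0.030 and -0.011, limma called 0 between the groups, and 14 passed the F test between assays (23.4% of all genes). Cdk2, the kinase partner of cyclin E, had the smallest p between the groups and read 294, 325 and 239.9 in mutant cells and 203, 271 and 224 in wild-type cells, higher in every pair. Rb1, Mybl2 and Cdc25a came next, with unadjusted p-values of 0.21, 0.21 and 0.41 in limma. Ccnd1 and Cdkn1a were chosen after their values were seen. Ccnd1, the cyclin D1 that M-CSF induces, read 2643, 3014 and 261 in mutant cells and 1784, 1701 and 347 in wild-type cells, a course like that of the MCM genes. Cdkn1a, the p21 inhibitor of cyclin-dependent kinases, read 2550.2, 2748 and 5367 in mutant cells and 3106, 4086 and 5744 in wild-type cells, lower in the mutant of every pair and highest in assay 3. The other D cyclins and Cdkn inhibitors of this list, also named after their values were seen, differed in part. Ccnd3 was lower in the mutant of every pair, and Ccnd2 was highest in assay 3, at 80.0 (mutant) and 68.6 (wild type). Cdkn1b was highest in assay 3 as well, and lower in the mutant of assays 1 and 2 alone. Cdkn2c was lowest in assay 3, at 284 (mutant) and 272 (wild type), and lower in the mutant of assay 2 alone.

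Mitotic genes differed the other way from replication genes in assay 2. Of 18 listed, 17 were tested, and 16 were higher in the mutant in assay 1, 0 in assay 2 and 7 in assay 3. Their median ratio of mutant to wild type was 1.18, 0.407 and 0.964, against 1.67, 1.56 and 0.978 for the 35 replication and G1/S genes. Bub1b, Ccnb2, Cdc20 and Cenpe had the smallest p-values between the groups, with 0 called by limma. Ccnb2, a mitotic cyclin, read 2166, 143 and 164 in mutant cells and 2061, 1178 and 171 in wild-type cells. The median log2(intensity + 16) of the 35 genes was second-highest on mutant array 2, at 8.48 after 9.12 on mutant array 1. That of the mitotic genes was 7.32 on mutant array 2, below 8.78 on wild-type array 2 and above 6.43 and 6.70 in assay 3. The median ratio of assay 1 to assay 3 was 12.5 for the mitotic genes and 2.94 for the 35. In the F test 15 of the 17 mitotic genes passed (23.4% of all genes). The difference between the lists was not tested.

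**Figure D5:**
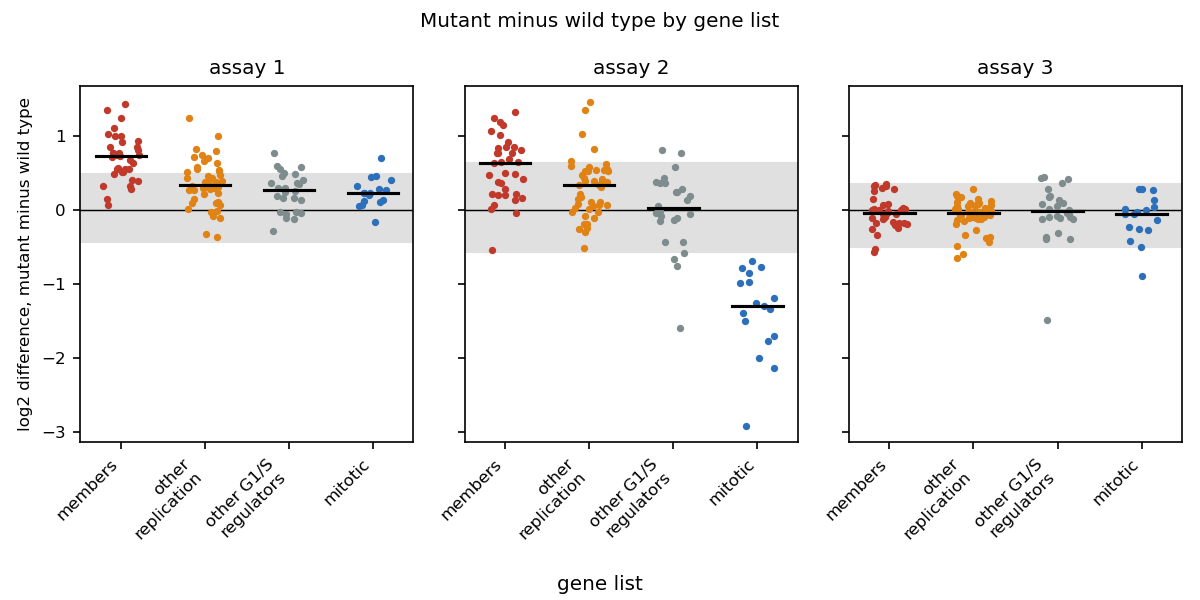
Points are log2 differences between the mutant and the wild-type array of each assay for the 35 replication and G1/S genes tested (members), 45 other replication genes, 26 other G1/S regulators and 17 mitotic genes, with black bars at the medians and grey bands from the 5th to the 95th percentile of all 10363 genes. In assay 2 the median of the members is at 0.65 and that of the mitotic genes at -1.30, while in assay 3 all 4 medians are near 0.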

How the data were processed

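Expression was measured on 6 arrays, 3 per group, with groups and replicate numbers from the sample titles. The authors deposited processed intensities on a linear scale. GCOS and GCRMA are named, with no version or order, per the submitters' processing notes. GCRMA corrects the background and makes array distributions alike, so a shift of all genes could not be seen, and dim probe sets lie close to a floor. With 6 arrays, precision is limited by their number.

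Of 45101 probe sets, the 64 controls were dropped, and the 22497 above the 50th percentile of their array on at least 3 arrays were kept. Values were taken as log2(intensity + 16) and tested two-sided with limma 3.58.1 in R 4.3.3 (lmFit, eBayes), with Benjamini-Hochberg adjustment over all kept probe sets and a threshold of 0.05. Groups were compared without a block, and assays with an F test with the group in the model. The deviations of same-numbered arrays from their group means correlated at 0.797, 0.671 and 0.845 and those of others at -0.618 to -0.0138. Deviations from a mean of 3 arrays cancel out, so the negative values follow in part from the positive ones. The labels describe 3 independent assays, and numbers were therefore read as pairing arrays. The labels do not say whether assays used different mice. Xist and Eif2s3y differed between assay 3 and the others, and Eif2s3y also within assay 1. In the fit without a block, p-values measure the spread between these preparations within a group. In the F test, its comparisons and the fits with a block, they measure how the difference between mutant and wild type varied over assays. Each assay gave only 1 array per group, so the spread of repeated preparations within an assay is not known. The fits were tested on simulated data. Alternatives covered pseudocounts, filters, quantile normalization, gene means, blocks, trend and robust settings, and left-out arrays.

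The 37 genes and the other lists were chosen with earlier results of these data known. All 37 genes are accounted for, markers are named, and up to 4 genes of each other list were named by their smallest p. Genes outside this rule are marked as picked after seeing values. Symbols came from the platform annotation and promoters from RefSeq (GRCm38.p6). Windows were not used here for Ccne2, Gins1, Gins2, Gmnn, Mcm4, Pole and Prim2.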

Additional observations from a re-analysis of the deposited data

How the results depend on the processing

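Between the groups limma called 0 of the 35 genes under all alternatives run, and the replicate block changed no call (0 called, smallest adjusted p 0.859). Of 661 values of single genes over 19 settings, 619 kept their direction and 42 turned. The median log2 difference of 0.41 was 0.022 to 1.001 with 1 array left out, which leaves an assay in 1 group only. The genes that turned then had log2 differences of Mcm5 -0.029 to 1.57, Mcm7 -0.059 to 1.14, Gmnn -0.073 to 0.63, Mcm10 -0.23 to 0.80, Gins2 -0.065 to 1.11, Pola1 -0.00083 to 1.001, Prim1 -0.10 to 1.29, Prim2 -0.11 to 0.65, Pole -0.30 to 1.25, Rfc4 -0.19 to 0.77, Rfc5 -0.30 to 0.65, Rpa2 -0.18 to 0.77, Fen1 -0.11 to 0.47, Lig1 -0.29 to 1.45, Rrm1 -0.87 to 0.50, Rrm2 -0.60 to 1.39, Uhrf1 -0.45 to 1.65, Ccne2 -0.013 to 1.53, E2f1 -0.039 to 0.47, E2f2 -0.37 to 1.39. Rrm1 was at 0.048 as the mean of its probe sets and at 0.20 without both arrays of assay 2, and Rfc5 and Fen1 were at -0.10 and -0.012 without both arrays of assay 1. The 16 genes higher in every pair were 33 without assay 3, and those lower in every pair were 2 without assay 1.

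The 24 genes called between assays were 0 without the filter, as were those lower in assay 3 than in assay 1 or assay 2, and the cause was not tested. With 1 array left out, when the lone array of an assay is assumed to vary like the others, these counts ranged from 0 to 16, from 0 to 22 and from 0 to 8. The medians of assay 3 minus 1 and of assay 3 minus 2 stayed below 0 in every alternative run for them. The median of assay 2 minus 1 (-0.38) was -0.41 and -0.28 with pseudocounts of 1 and 64, -0.35 without the filter, -0.33 with a 70th percentile filter and -0.51 to -0.15 with 1 array left out. The median of pair 3 minus the mean of pairs 1 and 2 (-0.60) was -0.49 with a pseudocount of 64. Signal over background limits Cdc45, Mcm10, Pole and Tyms in assay 3, where they lie near the array medians. Uhrf1 was dim there too, at 20.01 on the mutant array.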
